A study of Mus musculus with 4 samples.

Results

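Matrix-binding integrins, the surface receptors by which cells hold on to extracellular matrix, were examined in RNA sequencing of cultured mouse macrophages. The group was set by gene symbol and held 10 subunits, the beta subunits Itgb1, Itgb3, Itgb5 and Itgb8 and the alpha subunits Itgav, Itga1, Itga5, Itga6, Itga8 and Itga9, out of 34745 genes in the count table. Of the 10 subunits, 9 passed the filter on low counts, as did 12418 genes in all. Only Itga8 did not pass. The rule uses gene symbols and no measured value, although the group was proposed with earlier results of these data known.

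The 4 libraries came from 2 genotypes. The 2 libraries labelled WT were from G3bp1f/f mice, in which the G3bp1 gene carries sites for Cre recombinase but is intact, and the 2 labelled KO were from G3bp1mac-/- mice, which carry the same floxed gene together with Cre driven from the Lyz2 locus. Lyz2 is active across the myeloid lineage, so the deletion is not limited to macrophages by this driver. Per the study's text the sequenced cells were bone marrow-derived macrophages, and the labels name a serum-containing medium for the culture. No stress agent is named for these samples. The study's text gives an age and a sex for purchased C57BL/6J mice but not for the floxed donors, and whether cells were pooled is not given in the sources used here. Nothing in the labels says that the 2 libraries of a genotype came from separate mice, so p-values measure only the spread between these libraries.

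The libraries held between 16724241 and 19747909 counts. The 9 macrophage markers examined were all detected, with a summed level of 26510 and 24599 CPM in WT and 21074 and 24605 CPM in KO, where CPM are counts relative to the scaled total of each library. Most of that sum was Lyz2, the locus that carries Cre in KO, at 21855 and 18664 CPM in WT and 16857 and 19483 CPM in KO. G3bp1 itself had 1691 and 2875 counts in WT, compared with 1307 and 2296 in KO, and its log2 fold change was -0.61 (adjusted p 0.904, quasi-likelihood test of edgeR). Within replicate numbers 1 and 2 its log2 ratios of KO to WT were -0.57 and -0.63, and the genotypes overlapped. The study's text states that macrophages of the knockout mice had efficiently lost G3BP1 expression, which was measured apart from these libraries. Counts over the whole gene do not show the loss of single exons, so this gene could not be used to check the labels, and each direction given for KO rests on them. The first principal component, with 57.4% of the variance, separated replicate number 1 from number 2, and the second, with 34.3%, separated WT from KO.

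Integrins are paired receptors, each made of an alpha and a beta chain, and the pair decides which matrix protein is bound. The beta chain Itgb1 pairs with many alpha chains and gives receptors for fibronectin, laminin and collagen, while the alpha chain Itgav pairs with Itgb3, Itgb5 or Itgb8, among others, and binds proteins with an RGD motif such as vitronectin. From inside the cell, talin and kindlin bind the beta tail and switch the receptor on. In macrophages the alpha v receptors also take part in the uptake of apoptotic cells through the bridging protein MFGE8, and Itgav with Itgb8 can release active TGF-beta from its latent form.

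G3BP1 is an RNA-binding protein, and in a separate immunoprecipitation experiment on macrophage RNA the study described an enriched motif for it, GANGANGA, where N is any base. Matches to these letters were searched on the sense strand of 1 main transcript per gene (GENCODE M21, GRCm38), overlapping matches included. All 10 subunits held at least 1 match within their coding sequence. A coding window of 30 bases, 5′ to 3′ with the match in capitals, is given for 8 of them, to show where the motif falls in the transcripts whose levels follow.
Itgb1: atgaatgaaatGAGGAGGAttacttcagac
Itgb3: gtgagtgctctGAGGAGGAttaccgaccct
Itgb5: atttttgctgtGACGAAGAaccactatatg
Itgb8: gatgtcattttGATGAAGAccagtttcctt
Itgav: accctgagactGAAGAAGAcgttgggccta
Itga5: gactgcagggaGATGAAGAtctacctcagg
Itga6: atctcagaattGAAGATGAtatggacggag
Itga9: ggggagaccggGATGACGAgtggatggggg

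These letters are common. At least 1 match anywhere in the main transcript was found in 9238 of the 11608 tested genes with a coding transcript (79.6%). The median was 0.708 matches per kb. How many of these genes hold a match within their coding sequence was not counted. The subunits ranged from 0.119 matches per kb in Itgb8 to 0.914 in Itgb5, and between 20.5% and 59.8% of the tested genes had fewer. The windows shown for Itgb1 and Itgb3 carry the same 8 letters, and those for Itgb8 and Itga5 share another match. A match describes the sequence and is not evidence of binding, which was not measured in these libraries.

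The levels of the subunits were compared first within each library, on the FPKM scale, which divides counts by gene length and library total. This allows genes to be set side by side only as far as the length used is right. For some subunits it differs from the main transcript, at 12308 against 4310 bases for Itga6 and 5984 against 10967 for Itga1. The order of levels and the shares below depend on it. Among the beta chains, Itgb1 was at 134 and 188 FPKM in WT and 192 and 210 FPKM in KO. It stood above between 97.0% and 98.3% of the tested genes in every library and was the highest subunit in all 4. Itgb5, whose product joins Itgav in a vitronectin receptor, was at 31.6 and 19.5 FPKM in WT and 44.3 and 26.8 FPKM in KO. Itgb3, the beta chain of the other vitronectin receptor and of the platelet fibrinogen receptor, was at 2.55 and 1.92 FPKM in WT and 4.53 and 2.09 FPKM in KO. In every library Itgb5 was thus far above Itgb3, by 12.4 and 10.1 times in WT and by 9.79 and 12.8 times in KO. Itgb8, which with Itgav binds latent TGF-beta, was near the bottom of the tested genes at 0.0648 and 0.178 FPKM in WT and 0.0614 and 0.0929 FPKM in KO.

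Among the alpha chains, Itga5, which with Itgb1 forms the main fibronectin receptor, was at 11.9 and 35.3 FPKM in WT and 21.1 and 32.1 FPKM in KO. Itga6, the alpha chain of laminin receptors, was at 3.42 and 2.09 FPKM in WT and 7.84 and 2.92 FPKM in KO. Itgav, the shared partner of Itgb3, Itgb5 and Itgb8, was at 1.55 and 2.02 FPKM in WT and 2.35 and 2.25 FPKM in KO. Itgav was the lowest of these 3 alpha chains by mean in both genotypes, and its range overlapped that of Itgb3 in both. The remaining alpha chains were scarce. The collagen receptor chain Itga1 was between 0.167 and 0.533 FPKM, and Itga9, whose ligands include tenascin-C, was between 0.188 and 0.635 FPKM. Itga8, the nephronectin receptor chain, had 1 and 2 counts in WT, with 1 and 4 in KO, close to the level of up to 0.152 to 0.188 CPM that a count of 0 allows in these libraries, counting error only. No fold change is given for it.

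**Figure D1:**
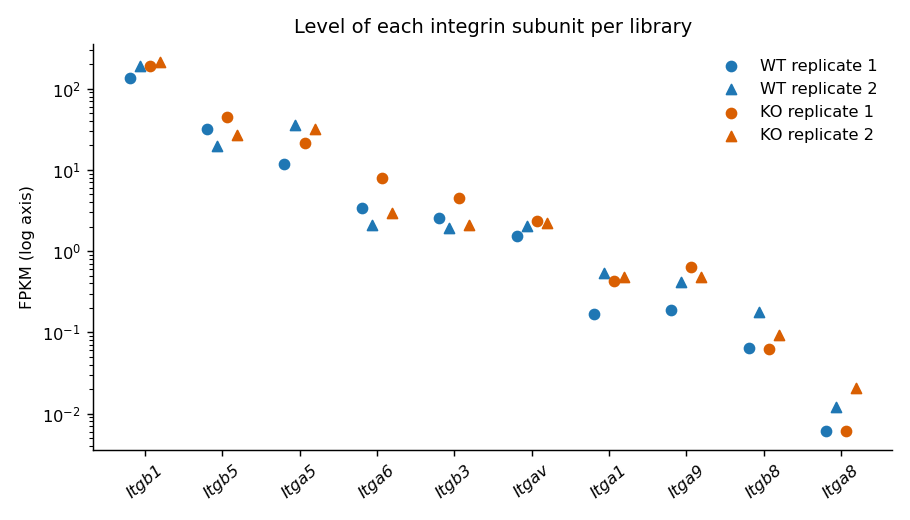
FPKM on a log axis of the 10 integrin subunits in each of the 4 libraries, in order of their WT mean (blue, WT; orange, KO; circles, replicate 1; triangles, replicate 2). Itgb1 lies between 134 and 210 FPKM in every library and Itga8 lies lowest, between 0.00603 and 0.0208 FPKM.

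By mean FPKM the order in WT was Itgb1 (161 ± 38.3, SD, n = 2), Itgb5 (25.6 ± 8.57), Itga5 (23.6 ± 16.5), Itga6 (2.75 ± 0.943), Itgb3 (2.23 ± 0.442), Itgav (1.79 ± 0.332), Itga1 (0.350 ± 0.259), Itga9 (0.303 ± 0.163), Itgb8 (0.121 ± 0.0799) and Itga8 (0.00907 ± 0.00430). The ranges over the libraries overlapped between the neighbours Itgb5 and Itga5, Itga6 and Itgb3, Itgb3 and Itgav, and Itga1 and Itga9. On this scale these neighbours did not differ beyond their spread. Within each single library Itga6 was nonetheless above both Itgb3 and Itgav. In KO the order was the same down to Itgav, and the same neighbours overlapped there, but Itga9 (0.560 ± 0.107 FPKM) lay above Itga1 (0.456 ± 0.0373 FPKM) in both libraries.

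As a share of the summed FPKM of the 4 beta chains, Itgb1 made up 79.6% and 89.7% in WT and 79.7% and 87.9% in KO. The mean share was 84.7% ± 7.12 in WT and 83.8% ± 5.82 in KO (SD, n = 2 each), a difference much smaller than the spread within a genotype. Itgb5 made up 18.8% and 9.31% in WT and 18.4% and 11.2% in KO. The composition therefore matched by replicate number more closely than by genotype. When only the beta chains that pair with Itgav and not with the other alpha members were taken, Itgb5 held 92.4% and 90.3% of the sum in WT and 90.6% and 92.5% in KO.

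The alpha chains showed the same arrangement more widely. Itga5 was 69.1% and 87.4% of the summed alpha FPKM in WT and 65.2% and 83.9% in KO. Itga6 was 19.8% and 5.18% in WT and 24.2% and 7.63% in KO. The ratio of the fibronectin receptor chain to the laminin receptor chain, Itga5 to Itga6, was 3.48 and 16.9 in WT and 2.70 and 11 in KO. It was lower in both libraries numbered 1 than in both numbered 2, while the genotypes overlapped.

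**Figure D2:**
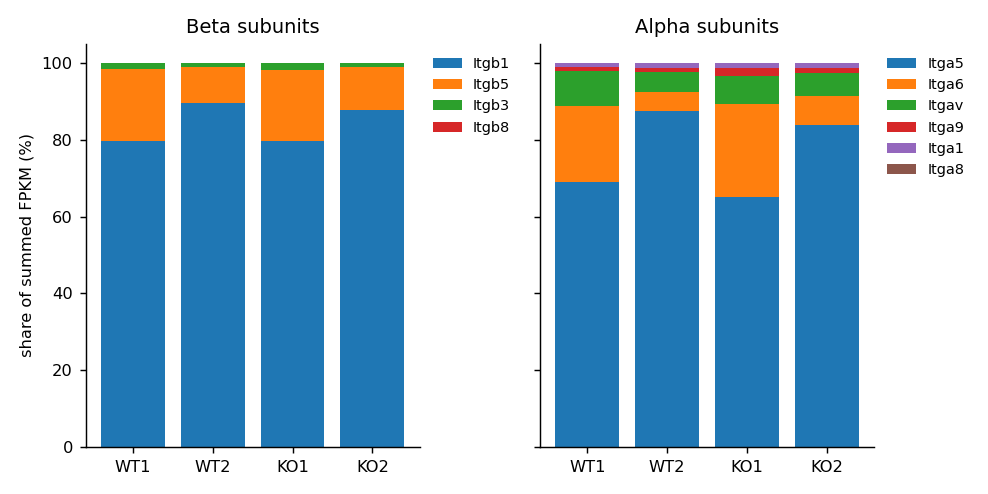
Share in percent of the summed FPKM taken by each of the 4 beta chains (left) and of the 6 alpha chains (right) in each library. The bars of replicate 1 resemble each other, with Itgb1 at 79.6% and 79.7% and Itga5 at 69.1% and 65.2%, as do those of replicate 2, with Itgb1 at 89.7% and 87.9% and Itga5 at 87.4% and 83.9%.

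KO was then compared with WT for each subunit, to ask whether macrophages labelled KO carry other amounts of these receptor transcripts. A call needed an adjusted p below 0.05 together with a log2 change of more than 1 either way, the limits of the study's methods, and 0 of the 9 tested subunits met them in the quasi-likelihood test of edgeR. That test called 0 genes in all (0%). At an unadjusted p under 0.05 it held 0 of the 9 subunits against 6.63% of all tested genes. The DESeq2 Wald test called 1.46% of the tested genes and the edgeR exact test 1.40%, with 0 of the 9 subunits in each. The 2 KO libraries were higher than either WT library for 1 subunit, Itga9, against 20.0% of all tested genes. They were lower than either for 0 subunits, against 16.9%. In bulk RNA, fewer cells that make a transcript and less of it per cell cannot be told apart.

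Itgb1 (ENSMUSG00000025809, chromosome 8 from 128685654 to 128733200 of GRCm38, 16 exons) had 12862 and 17987 counts in WT, compared with 18114 and 23483 in KO. The mean level was 960 CPM in WT (SD 237, n = 2) and 1082 CPM in KO (SD 156, n = 2). KO differed from WT by a log2 fold change of 0.17 (SE 0.27, 95% confidence interval -0.51 to 0.85, edgeR adjusted p 0.971), and the groups overlapped. WT replicate 1 was the lowest library and KO replicate 2 the highest.

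Itgb5 (ENSMUSG00000022817, chromosome 16 from 33829665 to 33949153, 15 exons in the main transcript) had 2476 and 1520 counts in WT, with 3415 and 2439 in KO. Each KO library was above the WT library of its number, by 0.26 and 0.38 on the log2 scale, the only tested subunit apart from Itgb8 with a larger size of difference within number 2. The groups overlapped nonetheless, with a log2 fold change of 0.31 (SE 0.35, interval -0.57 to 1.19, edgeR adjusted p 0.962). Itgb3 (ENSMUSG00000020689, chromosome 11 from 104608000 to 104670476, 15 exons) had 374 and 281 counts in WT, compared with 654 and 357 in KO. Only KO replicate 1 stood out, above the other 3 libraries at 35.1 CPM. The log2 fold change of Itgb3 was 0.39 (SE 0.38, interval -0.57 to 1.35, edgeR adjusted p 0.957), and the log2 ratio was 0.61 between the replicates numbered 1 but 0.04 between those numbered 2.

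Itgb8 (ENSMUSG00000025321, chromosome 12 from 119158022 to 119238802, minus strand, 14 exons) was the only tested subunit with a negative log2 fold change. It had 15 and 41 counts in WT, with 14 and 25 in KO. WT replicate 2 was the highest library at 2.57 CPM, and the other 3 lay between 0.751 and 1.27 CPM. The log2 fold change was -0.78 (SE 0.64, edgeR adjusted p 0.941), and its interval from -2.41 to 0.84 was the widest of the 9. Without WT replicate 2 the value was 0.098.

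Itgav (ENSMUSG00000027087, chromosome 2 from 83724397 to 83806916, 30 exons) had 364 and 472 counts in WT, compared with 542 and 612 in KO. After scaling it was at 22.4 and 29.6 CPM in WT and 29.1 and 31.1 CPM in KO, so that WT replicate 2 lay between the KO libraries. Its log2 fold change of 0.21 had the smallest error of the group (SE 0.24, interval -0.40 to 0.82, edgeR adjusted p 0.963). Itgav and Itgb1 were the only subunits whose intervals left out a log2 change of 1 in both directions.

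Itga5 (ENSMUSG00000000555, chromosome 15 from 103344289 to 103366763, minus strand, 30 exons) had 887 and 2614 counts in WT, with 1548 and 2775 in KO. On the CPM scale the WT libraries, at 54.6 and 164, enclosed those of KO, at 83.0 and 141. The log2 fold change was 0.035 (SE 0.57, interval -1.42 to 1.49, edgeR adjusted p 0.995), made of 0.60 within number 1 and -0.22 within number 2. Removing a trend with gene length turned it to -0.0046.

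Itga6 (ENSMUSG00000027111, chromosome 2 from 71745616 to 71858416, 26 exons) had the largest positive log2 fold change in the main fit. With the replicate number in the model Itga9 was larger, at 0.78 against 0.69 for Itga6. Itga6 had 716 and 435 counts in WT, compared with 1614 and 709 in KO, or 44.1 and 27.3 CPM in WT and 86.6 and 36.0 CPM in KO. Each KO library was above the WT library of its number, with log2 ratios of 0.97 and 0.40, but WT replicate 1 was above KO replicate 2. The log2 fold change of 0.78 (SE 0.49, interval -0.47 to 2.03) had a p of 0.172 in the quasi-likelihood test of edgeR, 0.904 after adjustment.

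Itga9 (ENSMUSG00000039115, chromosome 9 from 118606690 to 118901003, 28 exons) had 27 and 60 counts in WT, with 90 and 81 in KO. The groups did not overlap, at 1.66 and 3.76 CPM in WT and 4.83 and 4.11 CPM in KO. The log2 fold change was 0.72 (SE 0.47, interval -0.48 to 1.92, edgeR adjusted p 0.904), and most of it came from number 1, with a log2 ratio of 1.52 against 0.13 within number 2. The gene overlaps Gm2415, which lies on the other strand and had 26 and 13 counts in WT, compared with 32 and 15 in KO. Whether counting used the strand is not given in the sources used here, so both could share reads. Itga1 (ENSMUSG00000042284, chromosome 13 from 114958079 to 115101964, minus strand, 29 exons) had 17 and 54 counts in WT, with 43 and 57 in KO. The difference was 0.23 on the log2 scale (SE 0.61, interval -1.31 to 1.77, edgeR adjusted p 0.982). Pelo, which lies within it on the same strand, had more counts, between 139 and 189, and reads near it could be assigned to either gene. Itga8 lies on chromosome 2 from 12106632 to 12301922.

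**Figure D3:**
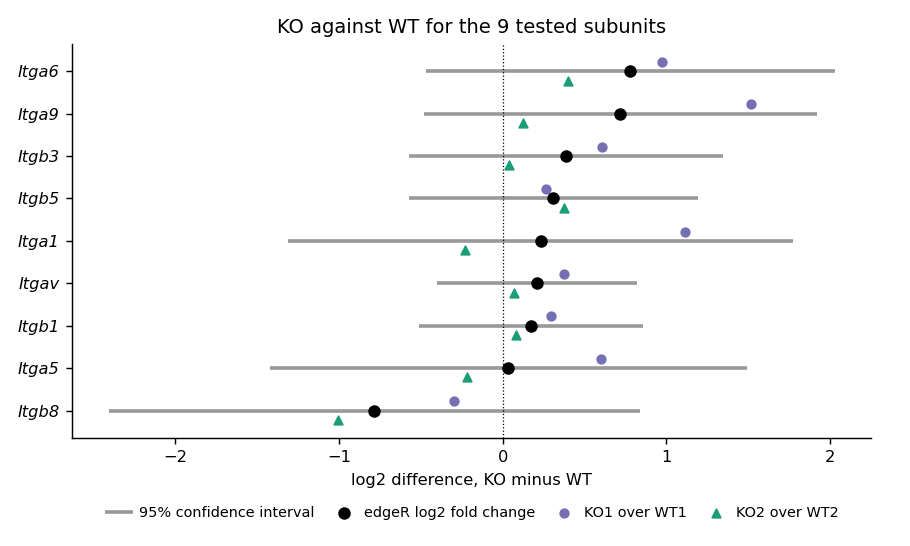
Log2 difference of KO from WT for the 9 tested subunits, with the edgeR estimate (black) and its 95% confidence interval (grey) from 2 libraries per genotype, and the log2 ratio within replicate number 1 (purple circles) and number 2 (green triangles). All 9 intervals cross 0, and 8 of the 9 circles lie to the right of the triangle of the same subunit.

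Over the group, 8 of the 9 subunits had a log2 fold change above 0, against 54.6% of all tested genes, and the median was 0.23 against 0.04. Leaving out a library lowered this count to 5 of 9 for WT replicate 1, to 6 for KO replicate 1 and to 7 for KO replicate 2. Without WT replicate 1 the median was 0.03, and Itga1, Itga5 and Itgb1 were at -0.38, -0.55 and -0.057. Itga5 also turned sign without KO replicate 2 (-0.40), Itgb3 without KO replicate 1 (-0.17), and Itgb5 without WT replicate 2 (-0.022) or KO replicate 1 (-0.0012). The ratio of KO to WT was above 1 within both replicate numbers for 6 subunits, against 36.0% of all tested genes, and below 1 in both for 1, Itgb8, against 29.0%. Their median log2 ratio was 0.60 between the replicates numbered 1 and 0.07 between those numbered 2, where that of all tested genes was 0.11 and -0.0013. By the length behind the FPKM values, 5 of the 9 subunits were among the 4140 tested genes longer than 7273 bases. The median log2 fold change of those genes was 0.16. Main transcripts give another picture, with only Itgb8, at 8403 bases, and Itga1, at 10967, longer than 7273. Itgav, Itgb3, Itga6 and Itga9 passed that limit by the FPKM length only, with main transcripts of 7054, 5784, 4310 and 7020 bases. Without the trend with gene length the median of the subunits was 0.17. All 9 intervals held 0, and those of 6 subunits also held a log2 change of 1, so a difference of that size was not left out for them.

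Libraries of the same genotype differed too, and for 8 of the 9 tested subunits replicate 2 differed from replicate 1 in the same direction in WT and in KO. Itgb1, Itgb8, Itgav, Itga1 and Itga5 were higher in replicate 2 than in replicate 1 in WT and in KO, and Itgb3, Itgb5 and Itga6 were lower. Only Itga9 went opposite ways. Of all tested genes, 64.9% had the same sign in both genotypes. Itga5 was 3.0 times higher in replicate 2 in WT and 1.70 times in KO, while Itga6 was 1.62 times higher in replicate 1 in WT and 2.40 times in KO. Itgb5 was 1.60 and 1.48 times higher in replicate 1. What the numbers stand for is not given in the labels, and the part of a batch in these differences was not tested. With the number added as a term to the model, edgeR called 5.35% of the tested genes and 0 of the 9 subunits, and Itga6 then had a log2 fold change of 0.69 and the lowest adjusted p of any subunit under any setting, 0.0485, short of the fold limit.

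**Figure D4:**
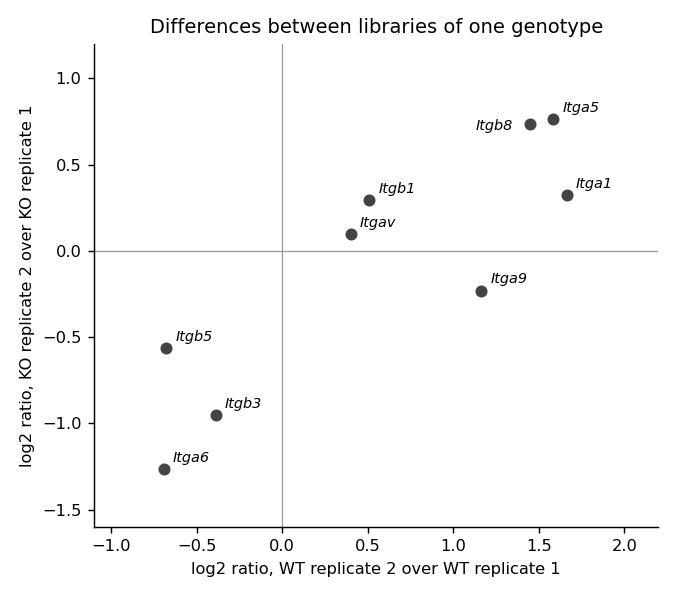
Log2 ratio of replicate 2 to replicate 1 in WT (horizontal) and in KO (vertical) for the 9 tested subunits, from CPM with 0.5 counts added. The upper right holds 5 points and the lower left 3, so 8 of 9 have the same sign in both genotypes, and Itga9 lies in the lower right.

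The other integrin genes were set beside them. Of 17, 7 were tested, and 6 had at most 3 counts in every library. Among the leukocyte integrins, Itgb2, the beta chain that macrophages use for complement and ICAM binding, was at 1714 and 2090 CPM in WT and 1806 and 1951 CPM in KO, a log2 fold change of -0.02. By FPKM it was between 1.99 and 2.62 times the level of Itgb1, so both beta chains were abundant in all 4 libraries. Itga4, which pairs with Itgb1 and binds fibronectin and VCAM1, had a log2 fold change of 0.36 (edgeR adjusted p 0.957), with overlapping libraries. Itgax, the CD11c chain, was at 265 and 376 CPM in WT and 388 and 418 CPM in KO, a log2 fold change of 0.33 that missed the threshold (edgeR adjusted p 0.941). Itga3, a laminin receptor chain that pairs with Itgb1, was the only one tested of 8 further matrix-binding subunits, with 21 and 24 counts in WT, compared with 51 and 40 in KO (log2 fold change 0.76, edgeR adjusted p 0.851).

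Itgam, the CD11b chain, appeared under 2 gene identifiers. The entry that the reference pairs with the symbol was at 181 and 124 CPM in WT and 310 and 227 CPM in KO, with a log2 fold change of 0.82 (edgeR adjusted p 0.725). The second was at 108 and 261 CPM in WT and 52.6 and 118 CPM in KO. Added together they gave 289 and 385 CPM in WT and 363 and 345 CPM in KO, and the groups overlapped, so the difference of the first entry was not present in the sum. Of the 7 other integrins tested, 5 were above 0 with a median of 0.36. The libraries did not overlap for 3, the first Itgam entry, Itgax and Itga3, with KO above, against 20.0% of all tested genes. By quasi-likelihood, DESeq2, the exact test and the fit with the replicate number 0 were called. Of all tested genes these called 0%, 1.46%, 1.40% and 5.35%. In the quasi-likelihood test 1 had an unadjusted p under 0.05, against 6.63% of all tested genes.

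Of the lists of the integrin pathway, the ligands of these receptors had the highest median difference. Of 45 matrix ligand genes, 35 were tested, 33 of them had a log2 fold change above 0, and the median was 1.67, against 54.6% and 0.04 for all tested genes. The KO libraries were both higher than the WT libraries for 28 of the 35, against 20.0% of all tested genes, and both lower for 0, against 16.9%. The quasi-likelihood test called 0 of the 35, while 22 had an unadjusted p under 0.05, against 6.63% of all tested genes. The DESeq2 Wald test called 12 (1.46% of all tested genes), the edgeR exact test 10 (1.40%) and the fit with the replicate number 18 (5.35%), all higher in KO. The summed level of the list, which is mostly Spp1, was 7167 and 7120 CPM in WT and 7115 and 8332 CPM in KO, and overlapped. Without the 3 ligand genes that the stromal marker list also holds, 30 of 32 were above 0 with a median of 1.27. Other collagen genes stayed in this count, so it does not separate the ligands from stromal genes. Fn1, fibronectin, the ligand of Itga5 with Itgb1, was at 64.3 and 114 CPM in WT and 226 and 224 CPM in KO (log2 fold change 1.33, edgeR adjusted p 0.387). Col1a2, a fibrillar collagen chain and ligand of Itga1 with Itgb1, was at 9.92 and 11.9 CPM in WT and 70.6 and 51.6 CPM in KO (log2 fold change 2.48, edgeR adjusted p 0.216). Col5a2, Fbn1 and Col3a1 had log2 fold changes of 2.46, 2.18 and 2.17, and their groups did not overlap either. The receptor chains Itga5 and Itga1 had log2 fold changes of 0.035 and 0.23.

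Spp1, Mfge8 and Vtn, ligands of alpha v receptors, and Tgfb1, whose latent form such receptors can activate, were named whatever their values. Spp1, osteopontin, a ligand of Itgav receptors and of Itga9, was at 6113 and 5913 CPM in WT and 5403 and 6792 CPM in KO (log2 fold change 0.02). Mfge8, the bridge from apoptotic cells to Itgav with Itgb3 or Itgb5, was at 758 and 772 CPM in WT and 937 and 830 CPM in KO (log2 fold change 0.21, edgeR adjusted p 0.957). Vtn, vitronectin, had 0 counts in all 4 libraries. Tgfb1, which is held latent until receptors such as Itgav with Itgb8 act on it, was at 90.4 and 136 CPM in WT and 120 and 150 CPM in KO (log2 fold change 0.26).

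**Figure D5:**
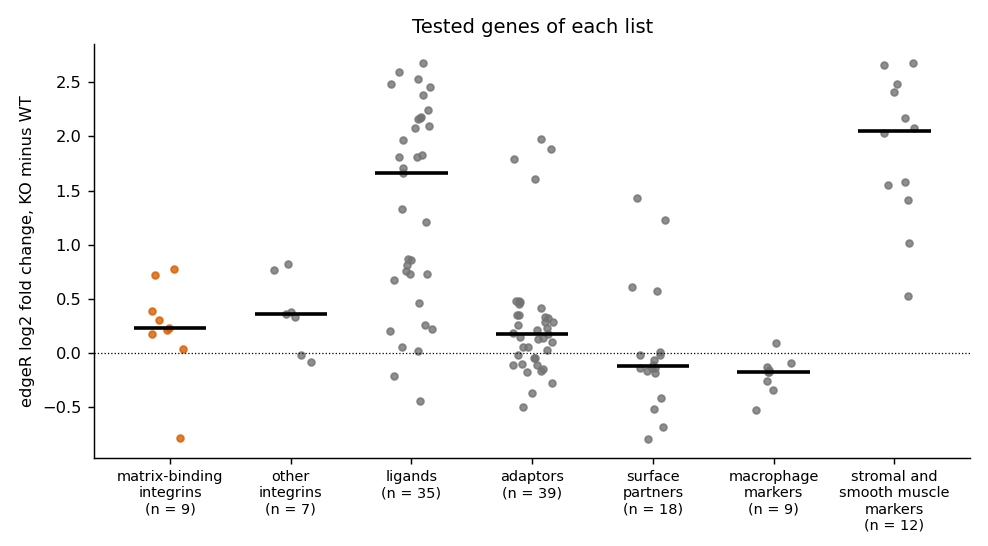
EdgeR log2 fold change of KO against WT for each tested gene of 7 lists, with the median of each list as a black line (9 matrix-binding integrins in orange). The integrins lie between -0.78 and 0.78 with a median of 0.23, while the ligands have a median of 1.67 and the stromal and smooth muscle markers lie above 0 for all 12 genes.

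Of 42 genes for proteins that join integrin tails to actin and signalling, 39 were tested, 27 lay above 0, against 54.6% of all tested genes, and the median was 0.18. KO lay above WT without overlap for 10 of these genes, against 20.0% of all tested genes, and below for 3, against 16.9%. The quasi-likelihood test called 0, with 4 at an unadjusted p under 0.05 (6.63% of all tested genes), while DESeq2 called 2 (1.46%), the exact test 1 (1.40%) and the fit with the replicate number 3 (5.35%). Fermt2, the kindlin of adherent non-blood cells, had 33 and 40 counts in WT, with 175 and 167 in KO (log2 fold change 1.97, edgeR adjusted p 0.250). Fermt3, the kindlin of blood cells, was at 105 and 93.5 CPM in WT and 115 and 91.8 CPM in KO (log2 fold change 0.06). Parva, a parvin of most tissues, had 22 and 39 counts in WT, compared with 140 and 129 in KO (log2 fold change 1.88, edgeR adjusted p 0.296). Parvb had a log2 fold change of 0.35, and Parvg, the parvin of blood cells, one of 0.23 with overlapping libraries. Ilk, the kinase-like partner of the parvins, had a log2 fold change of -0.14. Parvb, Parvg and Ilk were named after their values were seen. The scaffold gene Bcar1 had a log2 fold change of 1.79 on 8 to 60 counts, and Tgfb1i1, a focal adhesion protein gene listed under 2 identifiers, had 1.61 on 3 to 21 counts. Tln1, the talin that activates Itgb1 and Itgb3, was at 336 and 400 CPM in WT and 530 and 408 CPM in KO (log2 fold change 0.35, edgeR adjusted p 0.928), and Ptk2b, a relative of focal adhesion kinase, had a log2 fold change of -0.02.

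The 18 surface partners of integrins, such as tetraspanins and syndecans, were all tested, and 5 lay above 0 with a median of -0.12. The libraries did not overlap for 4 with KO above, against 20.0% of all tested genes, and 5 with KO below, against 16.9%. The quasi-likelihood test called 0, with 3 at an unadjusted p under 0.05 (6.63% of all tested genes), while DESeq2 called 1 (1.46%), the exact test 0 (1.40%) and the fit with the replicate number 2 (5.35%). Nrros, which tethers latent TGF-beta on the surface of myeloid cells for Itgav with Itgb8, was at 88.4 and 94.7 CPM in WT and 180 and 250 CPM in KO (log2 fold change 1.23, edgeR adjusted p 0.304). Both KO libraries were well above both WT libraries, whereas Itgb8 was the subunit with the lowest counts tested and a negative value. Sdc2, a syndecan, had a log2 fold change of 1.43, the tetraspanin Cd81 one of 0.57 and the urokinase receptor Plaur one of -0.68, none past the threshold.

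Markers of other cells were read beside these lists. Of 36 tested markers, macrophage genes included, the quasi-likelihood test called 0, as it did over all genes (0%), with 15 at an unadjusted p under 0.05, against 6.63% of all genes. DESeq2 called 9 (1.46% of all genes), the exact test 8 (1.40%) and the fit with the replicate number 12 (5.35%). Of 10 stromal markers, 9 were tested, all 9 were above 0 with a median of 2.07, and their summed level was 75.4 and 88.7 CPM in WT and 328 and 302 CPM in KO. Pdgfra, Cxcl12 and Dcn, genes of fibroblasts and marrow stroma, had log2 fold changes of 2.07, 2.66 and 1.58, and Lepr had at most 3 counts in each library. Of 8 smooth muscle markers, 3 were tested, all 3 above 0 with a median of 2.03, and the sum was 11.5 and 12.4 CPM in WT and 50.0 and 55.9 CPM in KO, while Cnn1, Cspg4, Lmod1 and Rgs5 had at most 3 counts. The 3 tested were Acta2, Des and Tagln, contractile and filament genes, at 2.41, 2.03 and 1.55 on the log2 scale. The macrophage markers had a median of -0.18, with 1 of 9 above 0. Both KO libraries were below both of WT for 2 of the 9, against 16.9% of all tested genes. These were C1qa and Cd68, at -0.52 and -0.18. Of the 9 stromal markers tested, 7 had KO above WT without overlap, against 20.0% of all tested genes, as had 28 of 35 ligands, Fermt2, Parva and Bcar1, and the part of stromal cells in those values was not tested. The summed level of the 10 integrin subunits was 1093 and 1472 CPM in WT and 1396 and 1551 CPM in KO, which overlapped. Endothelial markers, with 3 of 4 tested genes above 0, summed to 33.5 and 25.0 CPM in WT and 57.1 and 38.2 CPM in KO. Most of that sum was Vwf, which is also in the ligand list, at 26.7 and 19.6 CPM in WT and 49.3 and 34.9 CPM in KO. Pecam1, named after its values were seen, had a log2 fold change of -0.62 with overlapping libraries, and Tek and Emcn had 0 counts.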

How the data were processed

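Per the labels and the study's methods, total RNA was made into libraries with the VAHTS Universal V6 kit and sequenced on an Illumina instrument. The authors filtered reads with Seqtk, mapped them with HISAT2 2.0.4 and counted fragments per gene with StringTie 1.3.3b, and deposited raw counts for 34745 genes. The authors also deposited an FPKM value beside each count, scaled by gene length and library total. The submitters' processing notes name the mm39 build, but of 34267 gene identifiers shared with GENCODE M21, 27699 have identical coordinates in the GRCm38 annotation, and positions are given on GRCm38. Of the 10 subunits, all but Itgb5, Itga1 and Itga5 had identical ends there. The strand setting of the counting is not given in the sources used here.

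The count analysis used edgeR 4.0.16 under R 4.3.3. The filterByExpr function selected genes (at least 10 counts, and 15 in total), and TMM scaled the libraries. Genotype was the only term of the quasi-likelihood test, two-sided, with Benjamini-Hochberg adjustment over all tested genes, and a call needed an adjusted p below 0.05 with a log2 change of more than 1 either way. The F statistic of each gene gave its standard error and 95% interval. CPM are on TMM-scaled totals, and 0.5 counts were added before log2 ratios of single libraries. Levels were compared between genes on FPKM only. The code was tested on simulated data. A count of 0 was taken to allow up to 3 counts, counting error only, since reads carried no molecular identifiers.

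The members and lists (other integrins, ligands, adaptors, surface partners, and markers of macrophage, stromal, smooth muscle, endothelial, megakaryocyte, osteoclast, neutrophil and mast cells) were chosen with earlier results of these data known. Named were all members, up to 4 tested genes of each list with the smallest p among those with non-overlapping libraries, any called gene, and Itgb2, Itgam, Itga4, Fn1, Vtn, Spp1, Mfge8, Tgfb1, Tln1, Fermt3, Ptk2b and G3bp1. Alternatives were DESeq2 1.42.0 (size factors, and its Wald test), the edgeR exact test, no filter, a loess trend with gene length removed (span 0.5), a replicate term, that term with the length trend, and each library left out. No sample was left out of the main comparison.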

Additional observations from a re-analysis of the deposited data

How the results depend on the processing

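No alternative called any of the 9 tested subunits. Of 63 values of single subunits under 7 other settings, 62 kept the sign, and the exception was Itga5, at -0.0046 with the gene length correction. The median log2 fold change, 0.23, was 0.32 with the replicate block, 0.17 with the length correction, 0.19 with both and 0.20 with the DESeq2 Wald test, and from 0.03 to 0.42 with 1 library left out. The number of subunits above 0 ranged from 5 to 8 with 1 library left out, and was 5 without WT replicate 1. With a library left out, 6 subunits turned sign: Itga5 ranged from -0.55 to 1.00, Itga1 from -0.38 to 1.28, Itgb1 from -0.057 to 0.42, Itgb5 from -0.022 to 0.69, Itgb3 from -0.17 to 0.79 and Itgb8 from -1.34 to 0.098. The lone library of a genotype was then assumed to vary like the others. Itga6, Itga9 and Itgav stayed above 0, with ranges of 0.012 to 1.28, 0.25 to 1.39 and 0.026 to 0.39. The cause of these shifts was not tested.

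Libraries with the same number deviated together (correlation 0.710), but 2 pairs and no label do not make the numbers a pairing. The replicate block raised the calls over all genes to 664, or 613 with the length correction added, and 0 were subunits. For Itga6 the adjusted p was 0.0485 with the replicate block and 0.099 with the length correction added. Over all genes the DESeq2 Wald test called 181 and the exact test 174, against 0 in the quasi-likelihood test.

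The limits are the 2 libraries per genotype and, for Itgb8, Itga1, Itga9 and Itga8, low counts.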

Other observations

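Itgb3 is also a marker of osteoclasts and platelets, so genes of those cells were read beside it. Itgb3 had a log2 fold change of 0.39. Of 7 osteoclast markers, 5 were tested and 0 of them lay above 0, with a median of -0.45. Their summed level was 3865 and 3022 CPM in WT and 2890 and 2633 CPM in KO. Atp6v0d2, a proton pump subunit named after its values were seen, was at 2229 and 1326 CPM in WT and 1809 and 1193 CPM in KO, and overlapped. Dcstamp, needed for fusion of osteoclasts, was at 8.01 and 14.5 CPM in WT and 4.13 and 5.89 CPM in KO, and Ctsk, a collagen-degrading protease, had a log2 fold change of -0.38. Of 7 megakaryocyte markers only Pf4 was tested, at 225 and 149 CPM in WT and 80.2 and 115 CPM in KO, and 5 had at most 3 counts in every library. Itga2b, the platelet partner of Itgb3, had 3 and 1 counts in WT, with 9 and 2 in KO, and was named after its values were seen.

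Neutrophil markers summed to 20.2 and 20.9 CPM in WT and 7.24 and 10.9 CPM in KO, with 2 of 7 tested and neither above 0. S100a9, which codes for a subunit of calprotectin, had 91 and 82 counts in WT, with 2 and 1 in KO (edgeR adjusted p 0.216), and was called by the DESeq2 Wald test, the exact test and the fit with the replicate number. Its partner S100a8 made up most of the KO sum, at 14.5 and 15.2 CPM in WT and 7.13 and 10.6 CPM in KO. Mast cell markers summed to 34.1 and 36.8 CPM in WT and 18.7 and 22.4 CPM in KO, with 3 of 6 tested and 0 above 0. Cpa3, a mast cell protease, had a log2 fold change of -0.80 and Fcer1a, the IgE receptor chain, one of -1.40, and both had KO below WT without overlap. Kit, the third tested, overlapped. Gata2, too scarce to be tested, went the other way. It was at 0.43 and 0.46 CPM in KO, above the 0.12 and 0.25 CPM of WT. Ms4a2, also untested, was slightly lower in KO, and Mcpt8 had 0 counts.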
